A study of Saccharomyces cerevisiae with 2 samples.

Results

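The mating-type-specific genes of budding yeast were examined in 2 iCLIP libraries of Dbp2p, a DEAD-box RNA helicase. The set holds 10 of the 6002 annotated nuclear protein-coding genes and was chosen by systematic name. It has 6 genes used by a cells (STE2, MFA1, MFA2, BAR1, STE6 and AGA2), 3 used by alpha cells (STE3, MF(ALPHA)1 and MF(ALPHA)2) and AGA1, which cells of both mating types use. In iCLIP, cells are irradiated so that a protein becomes crosslinked to its bound RNA, and reverse transcription that stops at the crosslink marks the place to the nucleotide.

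Both libraries came from whole cells of Saccharomyces cerevisiae strain BTY140, which is MATa, carries the alleles his3Δ1, leu2Δ0, met15Δ0 and ura3Δ0, and has a tagged DBP2, written DBP2-HTBH:kanMX6. Cells were grown at 30 °C in YPD to an OD600 of about 1.0 and irradiated before harvest, and the protein was pulled down through its histidine-biotin tag. The libraries form 1 group of 2 replicates from this 1 strain, described as biological, and how the cultures were separated is not given in the labels. No untagged, input or alpha-cell library was used here, so there is no contrast between groups and no test, and every value below describes these 2 libraries. For each gene, the authors deposited the nucleotides with signal and a fraction that each of them holds of that gene's total. The fractions of a gene sum to 1, so they say where the signal lay and not how much there was. The measure of level is therefore the number of listed positions, which also grows with gene length, expression and the depth of the library, and the depth is unknown. Replicate 1 held 8666 positions and replicate 2 held 18088.

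Haploid yeast cells have mating type a or alpha, and cells of opposite type find each other with peptide pheromones. An a cell secretes a-factor, encoded by MFA1 and MFA2, and senses alpha-factor with the receptor Ste2. An alpha cell secretes alpha-factor, encoded by MF(ALPHA)1 and MF(ALPHA)2, and senses a-factor with the receptor Ste3. In a cells the alpha-specific genes are normally little expressed, because their activator is encoded by the MATalpha allele.

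Although the strain is labelled MATa, the gene of the set with the most positions was alpha-specific. STE3, the alpha-specific receptor gene, had 6 positions in replicate 1 and 11 in replicate 2, more than any other of the 10 genes. The 6 a-specific genes together had 3 and 6 positions, and STE2, the receptor gene of a cells, had 1 in each. STE3 thus held 66.7% and 64.7% of the 9 and 17 positions of the set. The alpha-factor genes, which alpha cells also use, had 0 positions in both replicates.

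Of the 10 genes, 4 were listed in replicate 1 and 5 in replicate 2, against 45.0% and 63.2% of all protein-coding genes. STE2, BAR1, STE6 and STE3 were listed in both replicates, as were 37.4% of all protein-coding genes, and AGA2 was listed in replicate 2 alone. Either replicate thus listed 5 of 10, against 70.8% of all protein-coding genes. MFA1, MFA2, AGA1, MF(ALPHA)1 and MF(ALPHA)2 were listed in neither. These shares lay near or under the background. Exactly 1 position was a frequent count, found in 22.2% of all protein-coding genes in replicate 1 and 19.3% in replicate 2. A gene without a position is not shown to be unbound, because the number of reads and the filters behind the lists are not known.

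**Figure D1:**
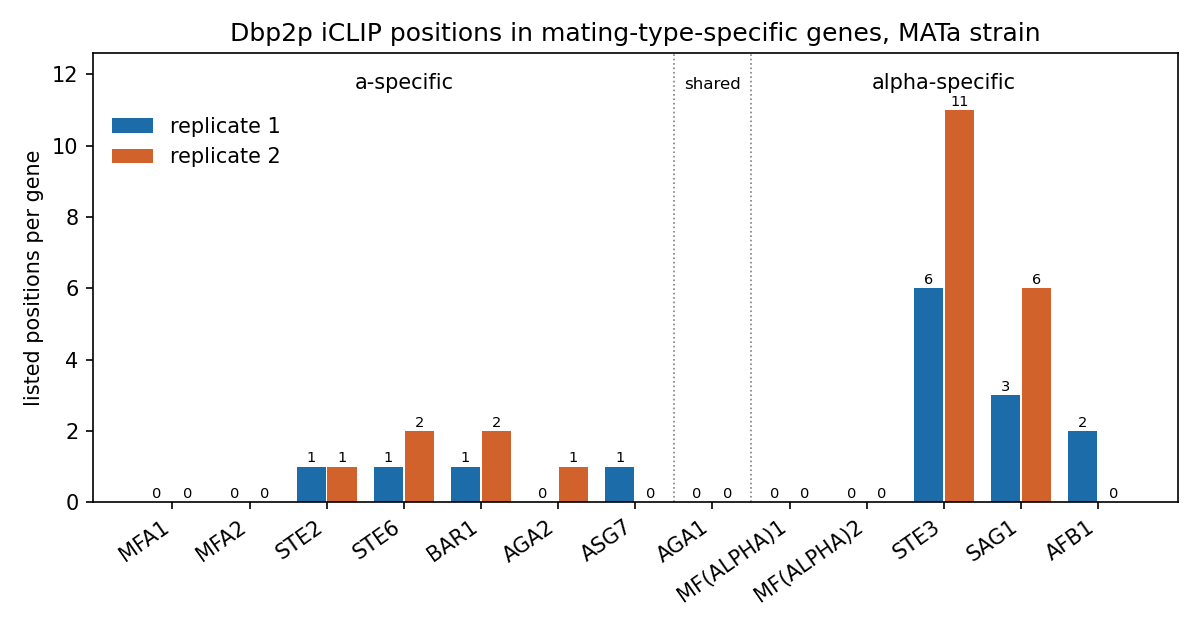
Number of listed Dbp2p iCLIP positions (vertical axis) in each mating-type-specific gene, with replicate 1 in blue and replicate 2 in orange. ASG7, SAG1 and AFB1 are not among the 10 genes and are shown as further markers of the mating types. STE3 stands at 6 and 11, and no a-specific gene has more than 2.

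Among the pheromone genes, none had a position. MFA1 (YDR461W, chromosome IV, 1385176 to 1385286, forward strand) and MFA2 (YNL145W, chromosome XIV, 352414 to 352530, forward) have reading frames of 111 and 117 nt that encode the a-factor precursors. MF(ALPHA)1 (YPL187W, chromosome XVI, 193648 to 194145, forward) and MF(ALPHA)2 (YGL089C, chromosome VII, 344791 to 345153, reverse) encode precursors of alpha-factor in frames of 498 and 363 nt. Of the 302 protein-coding genes of at most 300 nt, 16.9% were listed in replicate 1 and 26.8% in replicate 2, and of the 591 genes of over 300 to 500 nt the shares were 25.5% and 31.8%. At these lengths 0 positions was the most frequent outcome for any gene. No position under any other name lay within 250 nt of MFA2, MF(ALPHA)1 or MF(ALPHA)2 on either strand. Near MFA1 there was 1 such position, on the opposite strand, under the name of its neighbour CMI8.

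Of the receptor genes, STE2 (YFL026W, chromosome VI, 82580 to 83875, forward) had its only position of replicate 1 at nucleotide 407 of the reading frame, counted from 1 at the first base of the start codon. In replicate 2 its only position was nucleotide 262. Both were a U, at 31.4% and 20.2% of the way along the 1296 nt frame, and they lay 145 nt apart. STE3 (YKL178C, chromosome XI, 113215 to 114627, reverse) has a frame of similar length, 1413 nt. Of the 2266 protein-coding genes of over 1000 to 2000 nt, 47.4% and 69.4% were listed in replicates 1 and 2. Per kilobase of frame, STE3 had 4.25 positions in replicate 1 and 7.78 in replicate 2, and STE2 had 0.772 in each. All protein-coding genes together had 0.709 and 1.86 positions per kilobase. STE2 was thus close to that density in replicate 1 and under it in replicate 2, and STE3 was above it in both.

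STE3 stood high among all genes as well. In replicate 1, 2.77% of protein-coding genes had at least as many positions as STE3, in replicate 2 4.40%, and in both replicates together 1.73%, or 104 genes with STE3 itself. Among the 2266 genes in its class of length, 42 reached its counts in both, STE3 itself included. Per kilobase, 262 genes were denser in replicate 1 and 308 in replicate 2. The genes nearest to it in their pair of counts were PDC5, a pyruvate decarboxylase, SPT5, a transcription elongation factor, and YLR278C, each with exactly 6 and 11 positions. STE2, by contrast, shared its pair of counts with 326 other genes, the nearest in length being DBP8, YNL234W and RPT4.

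**Figure D2:**
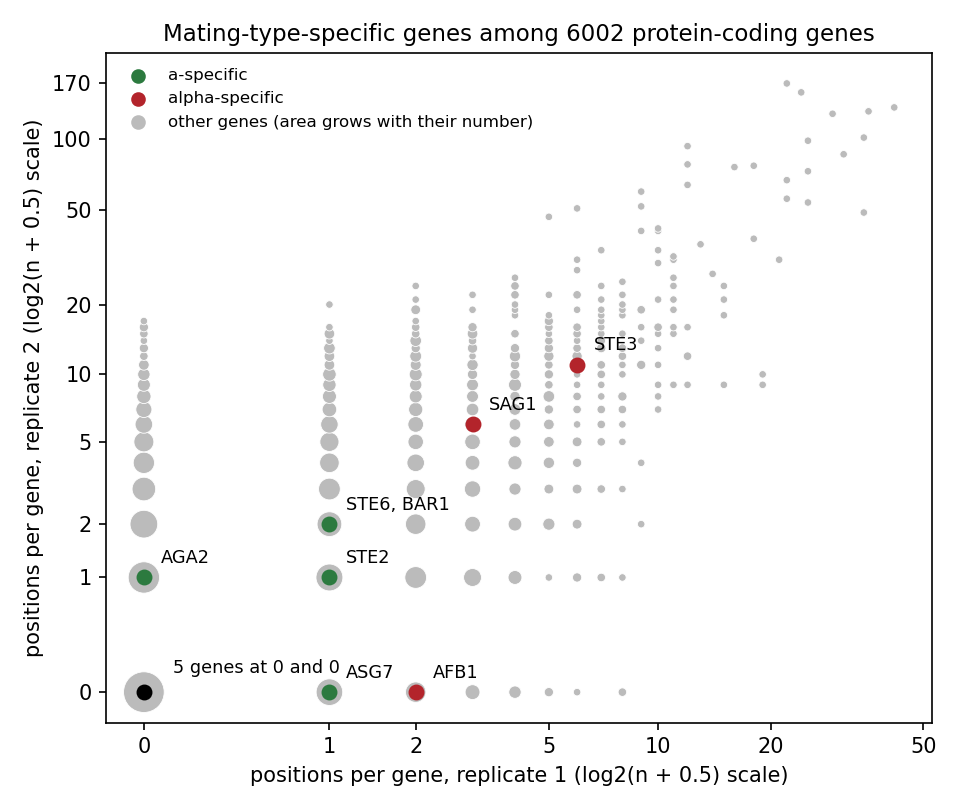
Positions per gene in replicate 1 (horizontal axis) and replicate 2 (vertical axis), both on a log2(n + 0.5) scale, for 6002 protein-coding genes. Grey circles grow with the number of genes at a pair of counts. The listed a-specific genes (green) lie at 0 to 2 positions. Of the alpha-specific genes (red), STE3 lies at 6 and 11, SAG1 at 3 and 6 and AFB1 at 2 and 0. The black point stands for the 5 members without a position, MFA1 and MFA2 among them.

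The STE3 signal lay mostly inside the reading frame. It was on the strand of the gene, but so were all 22720 listed positions of protein-coding genes, so the strand says nothing particular about STE3. In replicate 1 all 6 positions were inside the reading frame, at nucleotides 404, 534, 621, 622, 623 and 634. The strongest, nucleotide 621 (coordinate 114007), held 47.1% of the gene's signal, nucleotides 404 and 622 held 17.6% each, and the other 3 held 5.88% each. In replicate 2, 10 of the 11 positions were in the frame and the last lay 107 nt past the stop codon. The strongest was nucleotide 1173 (coordinate 113455) with 32.4%, followed by 1200 with 24.3%, 1254 with 10.8% and 1176 with 8.11%. Nucleotides 1205 and 1257 held 5.41% each. Nucleotides 390, 578, 1203, 1256 and the one past the stop held 2.70% each.

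The places of the STE3 signal differed between the replicates. The part of the frame up to its middle held 100% of the signal in replicate 1 and 5.41% in replicate 2. In replicate 1 a window of 100 nt from nucleotide 534 held 76.5% of the signal, and the same window held 1 position with 2.70% in replicate 2. In replicate 2 a window from nucleotide 1173 held 8 positions with 91.9% of the signal, and it held 0 positions in replicate 1. No nucleotide was listed in both. The nearest pair was nucleotide 404 in replicate 1 and 390 in replicate 2, 14 nt apart, and the strongest nucleotides lay 552 nt apart. With 2 libraries it cannot be told whether the places differ by more than libraries of this kind usually do.

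Set beside genes with similar counts, the lack of a shared nucleotide and the distance between the strongest nucleotides were not unusual. Among 101 protein-coding genes, STE3 included, whose positions numbered 4 to 8 in the first library and 8 to 14 in the second, 12 had a nucleotide listed in both replicates, 11.9%. The median distance between the strongest nucleotides of these genes was 470 nt, and 46 of the 101 had a distance of at least that of STE3. Concentration was compared among genes with at least 5 positions and a frame of 1000 to 2000 nt. The median share of the densest 100 nt was 40% over 94 such genes in replicate 1 and 80.5% over 398 in replicate 2. The share of STE3 was reached by 18 and 132 of them, STE3 included. Its strongest nucleotide, with 47.1%, was above the median of 27.3% in replicate 1, where 14 genes reached it. In replicate 2 its strongest, with 32.4%, was under the median of 45.5%, and 291 genes reached it. Merging positions up to 5 nt apart left STE3 with 4 separate places in replicate 1 and 6 in replicate 2. Without the positions of lowest value it had 3 and 6.

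**Figure D3:**
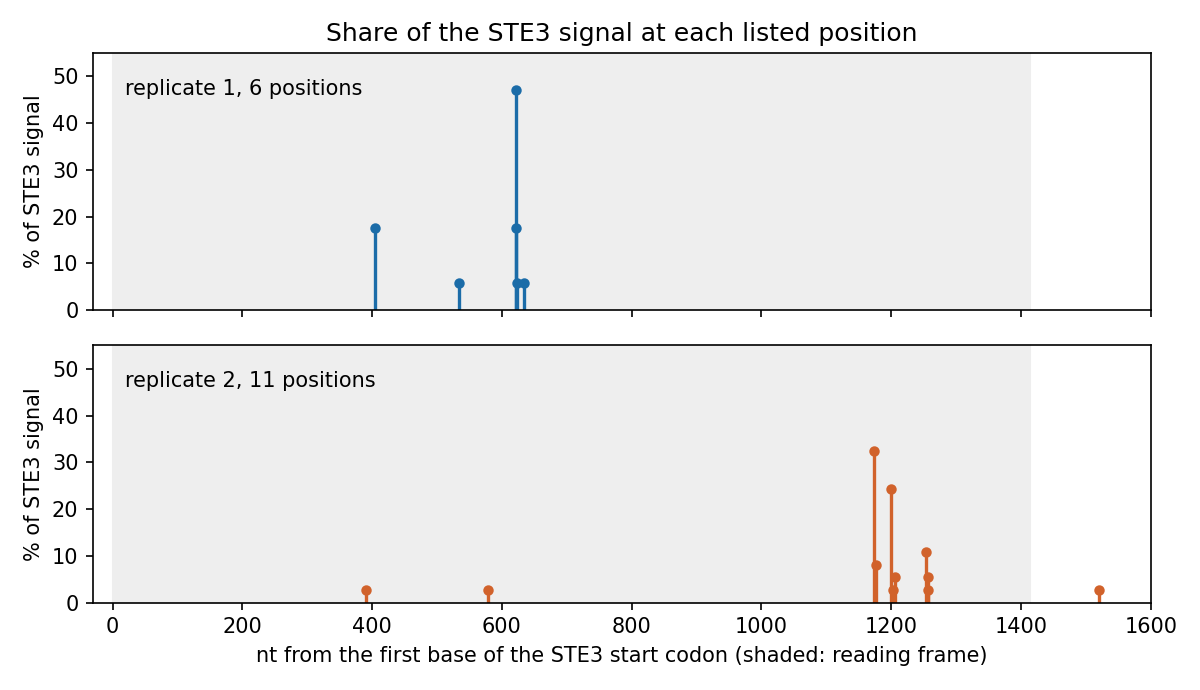
Share of the STE3 signal (vertical axis, percent) at each listed position, by distance from the first base of the start codon (horizontal axis, nt), in replicate 1 above and replicate 2 below. The shaded span is the reading frame. The strongest position is nucleotide 621 in replicate 1 and 1173 in replicate 2.

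No neighbour overlapped the STE3 positions. None of them was inside another annotated gene on either strand, and no position under another name lay within 250 nt of the gene. The neighbours on the same strand, COY1 and LST4, lay 711 and 872 nt away. COY1 had 3 and 2 positions and LST4 had 5 and 4. Among the neighbours of the other listed members, UBA1, on the strand opposite to STE6 and 185 nt from it, had 4 and 6 positions, and RPL24A, on the strand of AGA2 and 633 nt from it, had 1 and 5. Whether the reads behind STE3 also match other places in the genome was not analysed here.

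The export and barrier genes of a cells had few positions. STE6 (YKL209C, chromosome XI, 42423 to 46295, reverse) encodes the transporter that exports a-factor, and its frame of 3873 nt is the longest of the set. It had 1 position in replicate 1, nucleotide 2606, and 2 in replicate 2, which lay 54 and 151 nt past the stop codon with 50% of the signal each. The transcript was thus marked inside the frame in one replicate and after it in the other. Of the 410 protein-coding genes of over 3000 to 5000 nt, 67.3% and 88.3% were listed, so that a listing is common at this length. Its density of 0.258 and 0.516 positions per kilobase was the lowest among the members listed in both replicates.

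BAR1 (YIL015W, chromosome IX, 322342 to 324105, forward) encodes the secreted protease that degrades alpha-factor. It had 1 position in replicate 1, nucleotide 307 of a frame of 1764 nt, and 2 in replicate 2, nucleotides 916 and 1147, with 50% of the signal each. The nearest of these were 609 nt apart between the replicates. STE6 and BAR1 had the same pair of counts as 228 genes outside the set. By length the nearest to BAR1 were TDA1, IRC10 and PAP2, and the nearest to STE6 were PSK1, AXL1 and YCS4. AXL1 is itself a gene of a-factor processing.

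The agglutinins, which hold mating cells together, were the remaining members. AGA2 (YGL032C, chromosome VII, 436570 to 436833, reverse) encodes the binding subunit of a-agglutinin. It was not listed in replicate 1, and in replicate 2 it had a single position, an A 31 nt before the start codon. This was the only position of the set upstream of a frame. AGA1 (YNR044W, chromosome XIV, 703699 to 705876, forward) encodes the anchor subunit, and with a frame of 2178 nt it was the longest of the 5 members without a position. How often genes of that length are listed was not computed. AGA1 itself was listed in neither replicate. On its strand within 250 nt there was 1 position, under the name of its neighbour PET494.

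**Figure D4:**
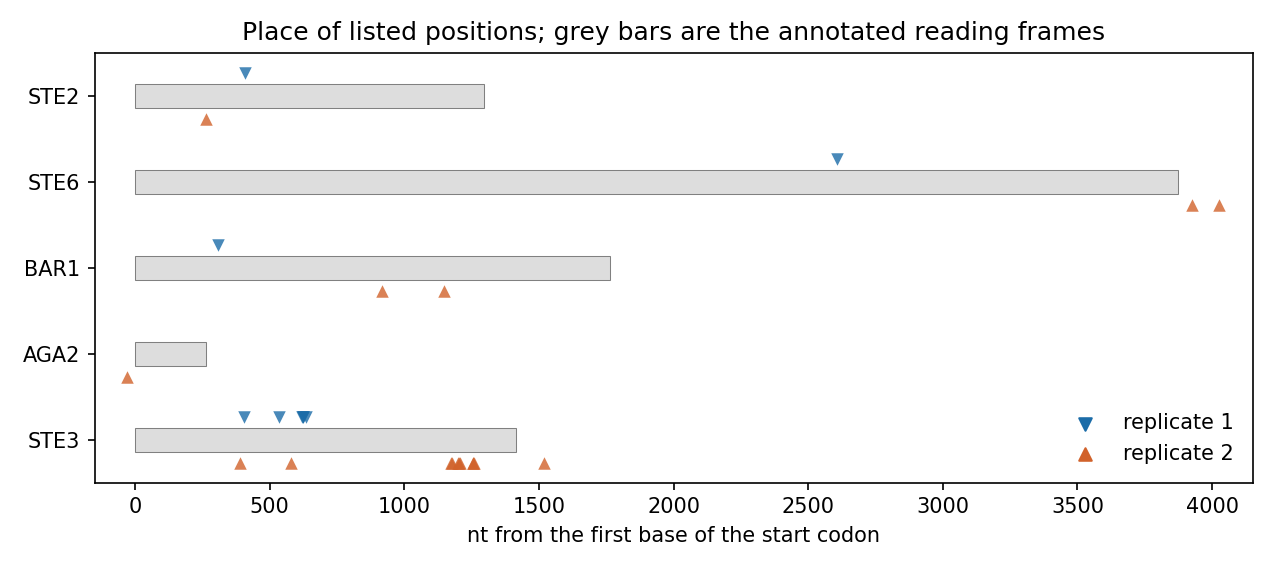
Place of each listed position (triangles, blue for replicate 1 and orange for replicate 2) in the 5 listed genes, by distance from the first base of the start codon (horizontal axis, nt). Grey bars are the annotated reading frames. No member has the same nucleotide in both replicates, and STE6 positions of replicate 2 lie past the stop codon.

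Over the set, 9 of 9 positions in replicate 1 and 13 of 17 in replicate 2 were inside a reading frame, and 3 of the others lay past a stop codon. With each gene weighted equally, the frame held 100% of the signal in replicate 1 and 59.5% in replicate 2, or 79.7% ± 28.7 (SD, n = 2). For all listed protein-coding genes the shares were 77.0% and 84.5%. The order between the set and all genes was thus opposite in the replicates, and with 4 and 5 genes a single position moves the share. No member had a nucleotide listed in both replicates, exactly or within 5 nt. Among the 797 genes with 1 or 2 positions in each replicate, 0.878% had an exact match. The share of genes with a match within 5 nt was not computed.

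The listed base was never C in these genes, at 0 of 9 and 0 of 17 positions. C was also the rarest base over all protein-coding genes, with 7.61% and 14.9% of positions. With so few positions in the set, no difference is read from its absence. In STE3, A was the base at 4 of 6 positions in replicate 1 and 2 of 11 in replicate 2, where A made up 49.0% and 39.5% of all protein-coding positions. U was the base at 1 of 6 and 8 of 11, where U made up 31.4% and 29.3%, so that the commonest base of STE3 differed between the replicates. Among the other members 2 of 3 and 4 of 6 were U. Neighbouring positions are not independent, and the sources used here do not say whether the listed base is the crosslinked nucleotide or the one beside it.

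STE3 was not the only alpha-cell marker with positions. SAG1, the alpha-agglutinin gene, had 3 and 6 positions, and AFB1, the gene of a barrier protein of alpha cells, had 2 and 0. More positions than SAG1 were found in 405 protein-coding genes in replicate 1 and 612 in replicate 2. ASG7, an a-specific gene, had 1 and 0. With these, the positions of 5 alpha-cell markers summed to 11 and 17, or 2.24 and 3.47 per kilobase, and those of 7 a-cell markers to 4 and 6, or 0.497 and 0.745 per kilobase. Of the 5 alpha-cell markers 3 and 2 were listed, and MF(ALPHA)1 and MF(ALPHA)2 were at 0 in both replicates. Of the 7 a-cell markers 4 were listed in each, and MFA1 and MFA2 were at 0 in both. With 45.0% and 63.2% of all protein-coding genes listed and so few markers, nothing is read from these counts of listed genes. The positions of the alpha-cell list rested mostly on STE3 and SAG1. The median per gene was 2 and 0 positions in the alpha-cell list, and 1 and 1 in the a-cell list. In libraries of whole cultures, a few cells with much of an RNA and many cells with little of it cannot be told apart.

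The nearest SAG1 positions lay closer between the replicates than the nearest of STE3. In replicate 1 they were nucleotide 236 with 40% of its signal, 1666 with 20% and 1707 with 40% of a 1953 nt frame. In replicate 2 the strongest was nucleotide 1710, with 66.7%, and it and the 3 positions after it, up to nucleotide 1715, held 88.9%. Nucleotide 991 and a position 226 nt before the start codon held 5.56% each in replicate 2. The nearest positions were 3 nt apart between the replicates, and none was shared exactly. How often other genes come as close was not computed.

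The rest of the mating pathway, taken as a whole, was listed at 53.2% in replicate 1 and 63.8% in replicate 2. Of all protein-coding genes, 45.0% and 63.2% were listed. Each list within the pathway holds few genes, so differences in share between the lists are not interpreted. Of 47 further pathway genes, the 3 markers above included, 25 were listed in replicate 1 and 30 in replicate 2, with medians of 1 and 2 positions and no more than 3 and 10. Of 16 pheromone signalling genes 9 and 10 were listed, 56.2% and 62.5%. GPA1, the G protein alpha subunit, had 1 and 3 positions, and STE4, the beta subunit, had 2 and 6. The kinase STE20 had 1 and 10, the cell cycle inhibitor FAR1 1 and 8, and the transcriptional inhibitor DIG1 3 and 5. The scaffold STE5 had 2 and 2, and the MAP kinase FUS3 had 1 and 2. STE18, STE11, STE7 and MSG5 had none. None of the 16 had as many positions as STE3 in either replicate.

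Of 9 genes that process the pheromones, 6 and 7 were listed, 66.7% and 77.8%. The a-factor protease gene STE24 had the most, with 1 and 7, and KEX2, the protease that cleaves the alpha-factor precursor, had 1 and 2. The farnesyltransferase subunit RAM1 and the a-factor protease AXL1 also had 1 and 2, and STE13, which trims alpha-factor, had 1 and 3. Of 7 genes of mating and cell fusion, 1 and 4 were listed, with at most 2 positions each. Their shares were 14.3% and 57.1%, against 45.0% and 63.2% of all protein-coding genes. With only 7 genes in this list, nothing is read from the difference. FUS1, a membrane protein of cell fusion, had 1 in each replicate. Of 12 regulators of mating type, 6 and 8 were listed, 50% and 66.7%. MCM1, which activates the a-specific genes, had 2 and 1 positions, and the corepressor gene TUP1 had 3 and 6.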

How the data were processed

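The authors deposited, per replicate, a table that gives each listed nucleotide its coordinate, strand, base and gene name, and a value that is a fraction of that gene's signal. The fractions sum to 1, within 1e-06, for all 2787 and all 3873 gene names. Per the submitters' processing notes, CASAVA, TopHat and the build sacCer3 were used. The sources used here do not give the handling of repeated cDNAs, of reads with several places and of gene flanks, or any minimum. No count was inferred from the fractions.

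Names were matched to annotation R64, which uses sacCer3 coordinates, for 4333 of 4336 names. Of the bases listed in start codons, 58 of 58 were those of AUG. Coordinates are 1-based. T is written as U. The annotation gives no untranslated regions, and its gene span is taken as the frame.

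Each replicate was computed on its own with Python 3.11.15, numpy 2.4.6, pandas 2.3.3 and matplotlib 3.10.9, and the placement was tested on simulated positions. Likeness was the distance of log2(positions + 0.5) over the 2 replicates, then of frame length. The 10 genes and all lists were chosen with earlier results of these data known. All members are named, with the 3 genes nearest to each member listed in both replicates. Pathway genes were given values where listed in both replicates, and a few others and the neighbouring genes named were picked after their values were seen. Alternatives left out a replicate, the lowest values of a gene that has unequal values, positions outside the frame or on another gene, merged or matched positions within 5 nt, divided by length, or weighted positions equally. Classes of count and length, windows and bases were chosen after the data were seen.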

Additional observations from a re-analysis of the deposited data

How the results depend on the processing

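The 5 members listed in either replicate were 4 inside reading frames alone, which drops AGA2, and 4 to 5 when either replicate was left out. The mean number of positions over the replicates, 13, was 9 without replicate 2 and 17 without replicate 1, 9.5 with positions within 5 nt counted once, 9 without the lowest values and 11 inside frames. On the scale of positions per kilobase of frame it was 1.09, which is another unit. The mean share of signal in the frame, 79.7%, ran from 59.5% to 100% when a replicate was left out and was 88.2% with positions weighted equally. No setting gave a shared nucleotide. STE3 had the most positions of the set under each setting run per gene, with a mean of 8.5 that was 4.5 without the lowest values. No paired analysis was possible because the 2 libraries form 1 group. Depth is unknown, so absence of a position sets no limit on binding.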

Other observations

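The mating-type cassettes of chromosome III had few positions. Of all protein-coding genes 45.0% and 63.2% were listed. Of those of over 300 to 500 nt, the class of HMRA1, 25.5% and 31.8% were. With so few and such short genes, nothing is read from the small number of positions. MATALPHA2, the alpha-cell repressor gene of the reference MAT locus (199546 to 200178), had 1 position in replicate 1, nucleotide 152 of the frame, and 0 in replicate 2. HMRA2 had 0 and 1. MATALPHA1, HMLALPHA1, HMLALPHA2 and HMRA1 had 0 in both. The strain is labelled MATa. As background, HMLALPHA2 is a copy of MATALPHA2, and the MATa allele holds a copy of HMRA2, so for each of these 2 positions the deposited name does not settle which copy gave the signal. These genes were looked at after the values of MATALPHA2 had been seen.

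Of the silencing genes that keep the spare cassettes off, SIR2, SIR3 and SIR4 were listed in both replicates and SIR1 in neither. Of all protein-coding genes 37.4% were listed in both. At the length of SIR4, over 3000 to 5000 nt, 67.3% were listed in replicate 1 and 88.3% in replicate 2. With so few genes, nothing is read from these listings. SIR2 had 1 and 2 positions, SIR3 1 and 3, and SIR4 3 and 4. The SIR4 positions of replicate 1 lay 162 to 165 nt past the stop codon, and the 4 of replicate 2 lay inside the frame.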
